A study of Homo sapiens with 6 samples.

Results

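The Hippo pathway was followed through 10 genes in RH36 cells: the transcriptional coactivators YAP1 and WWTR1, the DNA-binding partners TEAD1, TEAD2, TEAD3 and TEAD4, the kinases LATS1 and LATS2, and the target genes CTGF and CYR61. They were taken by name, as every probe to which the array files give 1 of these gene names, which came to 19 of the 41000 probes on the array and 10 of its 30484 gene names. RH36 is an embryonal rhabdomyosarcoma (ERMS) cell line, a single line without the PAX3/FOXO1 translocation, so these arrays describe 1 tumor's cells in culture. The cells were transiently transfected either with pre-miR-27a, a synthetic precursor that raises the level of the microRNA miR-27a, or with pre-control, its negative control, and RNA from 3 transfections of each kind was hybridised to 1-colour arrays. The labels give 10 nM of precursor, 48 h after transfection for the pre-miR-27a arrays and a test of overexpression at 24 h; the study's methods state another concentration and another transfection reagent, and it is not known which of these was used for the RNA on the arrays. No dose or time is given for the pre-control arrays beyond the shared protocol.

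In the Hippo pathway, a kinase cascade ends in LATS1 and LATS2, which phosphorylate YAP1 and its relative TAZ (the product of WWTR1) and so keep them in the cytoplasm and mark them for degradation. When the kinases are inactive, YAP1 and TAZ enter the nucleus, bind the TEAD proteins, which recognise DNA but activate little by themselves, and switch on genes such as CTGF and CYR61, both secreted matricellular proteins of the CCN family. The pathway is controlled mostly at the protein level, by cell density, attachment and stiffness. The mRNA levels of its kinases, coactivators and TEAD genes therefore do not measure its activity, and target mRNA alone does not settle it. In muscle, YAP1 is known for keeping satellite cells proliferating, and the TEAD proteins also bind the M-CAT elements of muscle genes. LATS2 is itself a gene that YAP1 and TAZ switch on.

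The sequences that matter for the comparison are the transfected microRNA and the promoter stretches that hold the letters TEAD proteins recognise. Mature hsa-miR-27a-3p lies at chr19:13836447-13836467 on the minus strand (RefSeq, GRCh38.p14), and its seed, bases 2 to 8, is in capitals. Its seed pairs with the letters ACUGUGA in a transcript, and transcripts were not searched for them here.
hsa-miR-27a-3p: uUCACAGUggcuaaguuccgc
The core of the TEAD motif, GGAATG, was searched on both strands (CATTCC on the other) in windows from 250 bases before to 50 bases after annotated gene starts in the same RefSeq set. It was present in 14.0% of all 35116 windows. Of the 10 genes, 7 had a window, 10 windows in all, and 3 windows held the motif. The promoter of CCN2, the current name of CTGF, held it 3 times, beginning 169, 104 and 95 bases before the start, and 0.128% of all windows (45) held it 3 or more times. The windows of YAP1 and LATS2 held it once each, 162 bases before and 9 bases after the start. The motif is in capitals in the stretches shown, at chr6:131951443-131951562 on the minus strand for CCN2, chr11:102110272-102110301 on the plus strand for YAP1 and chr13:21061560-21061589 on the minus strand for LATS2.
CCN2: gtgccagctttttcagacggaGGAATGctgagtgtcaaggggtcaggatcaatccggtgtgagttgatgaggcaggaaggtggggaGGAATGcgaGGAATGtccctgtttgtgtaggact
YAP1: ccgggagtgtgcaGGAATGtagcaacttgc
LATS2: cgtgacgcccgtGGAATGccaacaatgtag
None of the windows of WWTR1, TEAD2, TEAD3 and LATS1 held these letters. TEAD1, TEAD4 and CCN1 (the current name of CYR61) had no window in the table. A match describes the letters of the window and does not show that a protein is bound there.

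Signals are given as log2 of the background-subtracted intensity, quantile normalized across the 6 arrays, and differences as pre-miR-27a minus pre-control on the same scale. Levels of different probes are not compared, since each probe has its own brightness. The 3 pre-control arrays shared 1 slide and the 3 pre-miR-27a arrays another, so an effect of the slide and an effect of the transfection cannot be told apart in any difference below. Local background, as the median over spots, was 74.5 to 76 intensity units on the pre-control slide against 52.5 to 53 on the other. Spike-in signals were taken relative to each array's 75th percentile, without quantile normalization. Of 8 spike-in RNAs with signals well above background, 7 were brighter on the pre-miR-27a slide by this measure, and the median log2 difference of all 8 was 0.22. Arrays with the same replicate number deviated together from their group means, so a fit with the replicate number as a block is given beside the results whose call it changed. Of 8 genes of the skeletal muscle lineage, 7 were measured and were well above background on every array, MYOD1 and MYOG among them, whereas no array showed the 3 epithelial markers, PTPRC or PECAM1 well above background. Of the endothelial markers, VWF was well above background on every array at its brighter probe and on 0 arrays at its second. CDH5 was well above background on 1 pre-control and 2 pre-miR-27a arrays, and none of the 3 markers was called. The summed signal of the 7 muscle genes ranged between 146915 and 258683 intensity units after pre-control and between 134486 and 249528 after pre-miR-27a. None of the 7 was called by limma without the block (3 at an unadjusted p under 0.05), and with it 3 of the 7 fell: MYOG (difference −0.95, adjusted p = 0.140, and 0.0334 with the block), MYOD1 (−0.45, adjusted p = 0.0787, and 0.0363) and CDH15 (−0.35, adjusted p = 0.0561, and 0.0457). With the block 14.1% of all genes were called, 8.1% lower. The other 4 were not called, with MYH3 at 0.09, DES at −0.01 and CHRNA1 at −0.15. These counts take each gene by its brightest probe. The second CHRNA1 probe was called higher, at 0.95 without overlap (adjusted p = 0.0216, and 0.0334 with the block). The summed signal of the 3 blood markers was 347 to 382 and 241 to 255 intensity units. Unlike PTPRC, CD14 and CD3E were well above background on every array. Limma without the block called both lower, where 4.33% of all genes were called lower. CD14 differed by −0.71 (adjusted p = 0.0223) and CD3E by −0.44 (adjusted p = 0.0348), with −0.05 at the second CD3E probe (adjusted p = 0.874). The part of either marker list in the results below was not tested. In RNA pooled over a culture, fewer cells expressing a gene and less of its RNA per cell cannot be told apart.

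All 10 genes were detected in RH36 cells: each of the 19 probes was well above background on all 6 arrays. The dimmest was LATS1, at 28.3 to 67.2 intensity units, and the brightest probe of each of the other 9 genes gave at least 1086 units on every array. One probe of WWTR1 was found as a spot on only 1 of the 3 pre-control arrays and was left out, which left 18 probes. Taking each gene by its brightest probe, 5 genes were higher and 5 lower after pre-miR-27a, and the median difference was −0.0017 against −0.037 over the 27328 genes tested. The median size of the difference was 0.39 for the 10 genes and 0.21 for all genes. One gene, LATS2, was called by limma at an adjusted p under 0.05, where 7.4% of all genes were called (3.07% higher and 4.33% lower). With the replicate block 5 of the 10 genes were called, TEAD1 and LATS2 higher and TEAD2, TEAD3 and TEAD4 lower, where 14.1% of all genes were called (5.97% higher and 8.1% lower). The pre-miR-27a arrays did not overlap the pre-control arrays in 6 of the 10 genes and in 31.5% of all genes. Of these 6 genes, LATS1 had only 2 pre-miR-27a values, and among all genes too 1 array could be missing. Over the probes, 1 of 18 was called, where 7.83% of all probes were called (3.95% higher and 3.88% lower). With the block 9 probes were called, 3 higher and 6 lower, where 14.9% of all probes were called (7.24% higher and 7.62% lower). The groups did not overlap at 8 of the 18 probes and at 32.5% of all probes. An exact permutation test of a single probe, with 3 arrays in each group, has 0.1 as its smallest two-sided p, so the calls rest on the spread that limma pools over all probes.

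**Figure D1:**
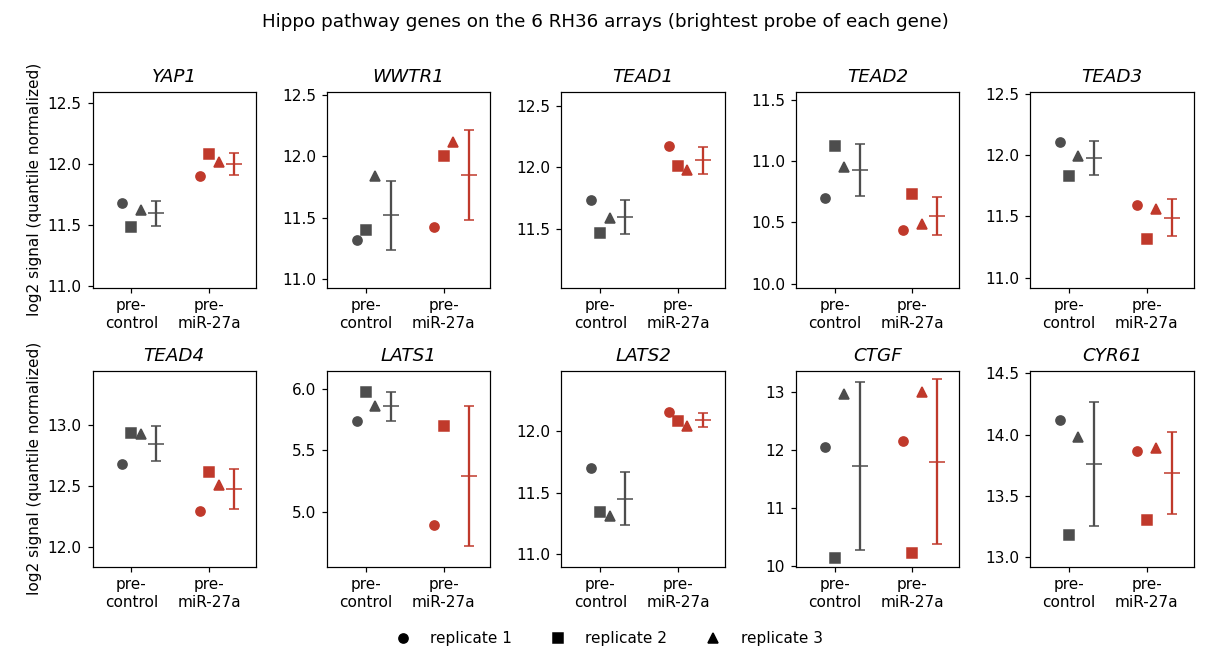
Quantile-normalized log2 signal of the brightest probe of each gene (vertical axis, each panel with its own range) on the 3 pre-control and 3 pre-miR-27a arrays, with the replicate number as the symbol and mean ± SD beside the points (2 pre-miR-27a points for LATS1). The groups do not overlap for YAP1, TEAD1, TEAD3, TEAD4, LATS1 and LATS2, and CTGF spreads over 2.76 to 2.81 log2 units within each group.

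YAP1, the coactivator, read differently at its 2 probes. The brighter one, at chr11:101608142-101608201 on hg18, gave 11.68, 11.49 and 11.62 on pre-control replicates 1, 2 and 3 and 11.90, 12.08 and 12.01 on pre-miR-27a replicates 1, 2 and 3. All pre-miR-27a arrays were above all pre-control arrays. The difference was 0.40 (SE 0.09, 1.32-fold), which limma did not call (adjusted p = 0.0611, and 0.0764 with the block). The other probe, 2348 bases upstream at chr11:101605794-101605853, gave 11.07, 11.22 and 11.17 and then 11.17, 11.18 and 11.17. Here the groups overlapped, with a difference of 0.02 (95% interval −0.17 to 0.20). The brighter over the dimmer probe had a log2 ratio between 0.27 and 0.61 after pre-control and between 0.73 and 0.91 after pre-miR-27a, without overlap (exact p = 0.1, the smallest possible).

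WWTR1, which encodes TAZ, also differed between its probes. The brightest, at chr3:150719007-150719066 (minus strand, hg18), gave 11.32, 11.40 and 11.84 on pre-control arrays and 11.43, 12.01 and 12.11 on pre-miR-27a arrays, overlapping, with a difference of 0.33 (SE 0.23, adjusted p = 0.454 in limma). Its neighbour at chr3:150719432-150719491 gave 9.51, 9.45 and 9.90 and then 9.86, 10.16 and 10.16, a difference of 0.44 (adjusted p = 0.165). Both were designed on the same cDNA, AL050107, and both were higher in every replicate pair. The probe designed on NM_015472, upstream at chr3:150721283-150721342, went the other way, with 9.17, 9.77 and 9.74 and then 8.81, 9.27 and 9.09. Its difference was −0.50 (SE 0.21, adjusted p = 0.209), and with the block it was called lower (adjusted p = 0.0425). The ratio of the neighbour to the upstream probe changed by 0.95 without overlap (exact p = 0.1). The left-out probe lies between them and was lower too, by −0.33, when no filter was applied (adjusted p = 0.256). The WWTR1 probes thus differed in sign, with both 3′ probes positive and both upstream probes negative.

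The 4 TEAD genes, whose products share the same DNA-binding domain, did not move together. TEAD1, at chr11:12921801-12921860 (hg18), gave 11.73, 11.46 and 11.58 on pre-control arrays and 12.18, 12.01 and 11.98 on pre-miR-27a arrays. All pre-miR-27a arrays were higher, with a difference of 0.46 (SE 0.11, 1.38-fold, adjusted p = 0.0596 in limma), and with the block TEAD1 rose (adjusted p = 0.0367). Its second probe, at chr11:12908300-12908359, gave 8.39, 8.21 and 8.09 and then 8.86, 8.72 and 8.44, again without overlap. The difference was 0.44 (adjusted p = 0.128, and 0.0381 with the block), and the ratio of both probes changed by only 0.02. TEAD1 stands in the study's list of differentially expressed predicted miR-27a targets, which was drawn up with these same arrays and is no independent evidence of its direction.

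TEAD3, at chr6:35549588-35549647, gave 12.11, 11.83 and 12.00 on pre-control arrays and 11.59, 11.32 and 11.56 on pre-miR-27a arrays. Every pre-miR-27a array was below every pre-control array, with a difference of −0.49 (SE 0.12, adjusted p = 0.0687), and with the block TEAD3 fell (adjusted p = 0.0336). The second TEAD3 probe, 90 bases downstream, differed by −0.43 (adjusted p = 0.208, and 0.0350 with the block). TEAD4, the member linked to myoblast differentiation, gave 12.68, 12.93 and 12.92 and then 12.29, 12.62 and 12.51 at chr12:3019652-3019816. These groups did not overlap either, and the difference was −0.37 (SE 0.12, adjusted p = 0.140, and 0.0402 with the block). TEAD2, at chr19:54537507-54537566, gave 10.70, 11.13 and 10.95 and then 10.44, 10.73 and 10.49, where the lowest pre-control array lay below the highest pre-miR-27a array. Its difference was also −0.37 (SE 0.14, adjusted p = 0.184, and 0.0491 with the block).

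The TEAD genes were also set against each other within each array, after the direction of TEAD1 had been seen. The log2 ratio of TEAD1 to TEAD3 changed by 0.95 from pre-control to pre-miR-27a (SD 0.03 and 0.14 over 3 arrays each), that to TEAD2 by 0.84 (SD 0.35 and 0.23) and that to TEAD4 by 0.84 (SD 0.27 and 0.26). None of these 3 ratios overlapped between the groups (exact p = 0.1 each, unadjusted over 6 pairs, the smallest value possible, so that none passes a threshold of 0.05). The 3 ratios among TEAD2, TEAD3 and TEAD4 changed by −0.11 to 0.11 and overlapped (exact p = 0.7 to 1). The 4 directions were the same under all 8 other settings tried, 75th percentile scaling included. Leaving out any 1 replicate pair ended every call made with the block, for these genes and for the whole array (0 calls by limma, where 8787 to 10437 probes had an unadjusted p below 0.05).

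**Figure D2:**
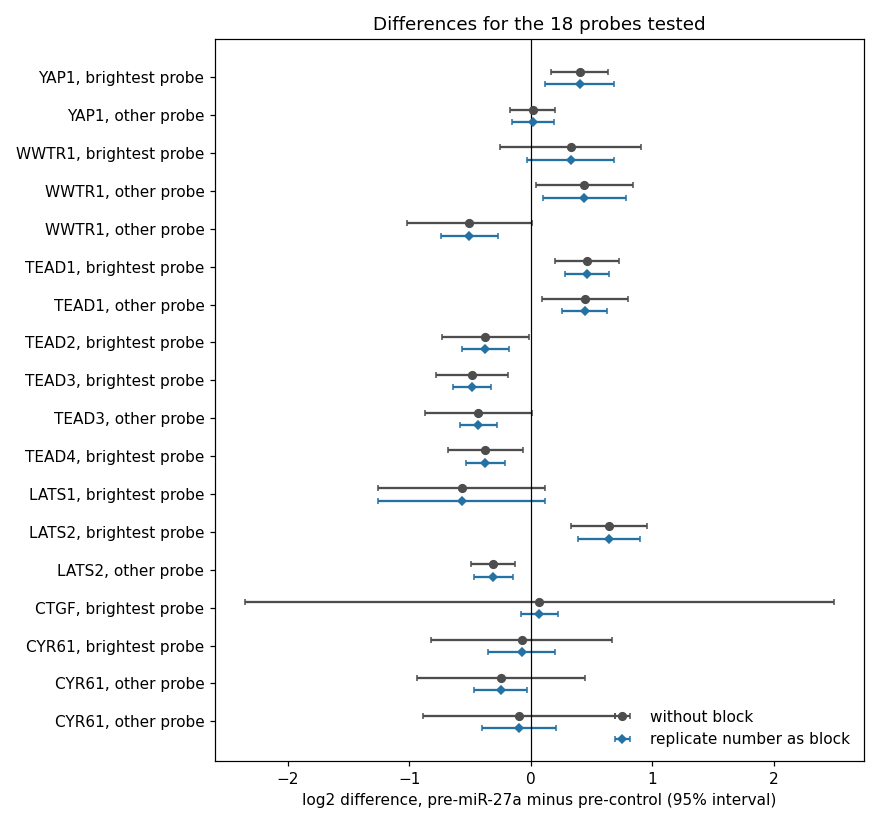
Difference in log2 signal, pre-miR-27a minus pre-control (horizontal axis), with its 95% interval for the 18 probes tested, without a block (gray circles) and with the replicate number as a block (blue diamonds). TEAD1 lies to the right of 0 and TEAD2, TEAD3 and TEAD4 to the left in both fits, while the block narrows the CTGF interval from −2.36 to 2.50 down to −0.08 to 0.22.

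Of the kinases, LATS2 gave the only call without the block. Its brighter probe, at chr13:20446786-20446845 (minus strand, hg18), gave 11.70, 11.35 and 11.31 on pre-control arrays and 12.16, 12.09 and 12.04 on pre-miR-27a arrays. The pre-miR-27a arrays were all higher and closer together, and LATS2 rose by 0.64 (SE 0.13, 1.56-fold, adjusted p = 0.0409 in limma). The second LATS2 probe, 857 bases downstream at chr13:20445929-20445988, gave 11.40, 11.37 and 11.43 and then 11.14, 11.05 and 11.08. All 3 pre-miR-27a arrays were lower at this probe, by −0.31 (SE 0.07, adjusted p = 0.0600, and 0.0487 with the block). The ratio of the brighter to the second probe lay between −0.12 and 0.30 after pre-control and between 0.96 and 1.04 after pre-miR-27a, a change of 0.95 without overlap (exact p = 0.1). Averaged over both probes, the LATS2 difference was 0.17 and was not called (adjusted p = 0.326). The call at the brighter probe was also lost when any array but pre-control replicate 1 was left out (difference 0.57 to 0.77, adjusted p = 0.0424 to 0.135 over the 6 omissions). This loss was not particular to LATS2. Over all probes, with 2856 calls on all arrays, leaving out pre-control replicate 1 left 1276 calls and pre-control replicate 3 left 81. Leaving out each of the other arrays left 0. The rise of LATS2 therefore holds for 1 of its 2 probes.

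LATS1 gave 5.74, 5.98 and 5.86 on pre-control arrays and 4.89 and 5.69 on pre-miR-27a replicates 1 and 2, and its spot was not found on replicate 3, which the fit took as missing. The values did not overlap, but the difference of −0.57 (SE 0.26, adjusted p = 0.273, and 0.172 with the block) shrank to −0.17 with another background correction, normexp. At this dim probe no change was detectable.

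**Figure D3:**
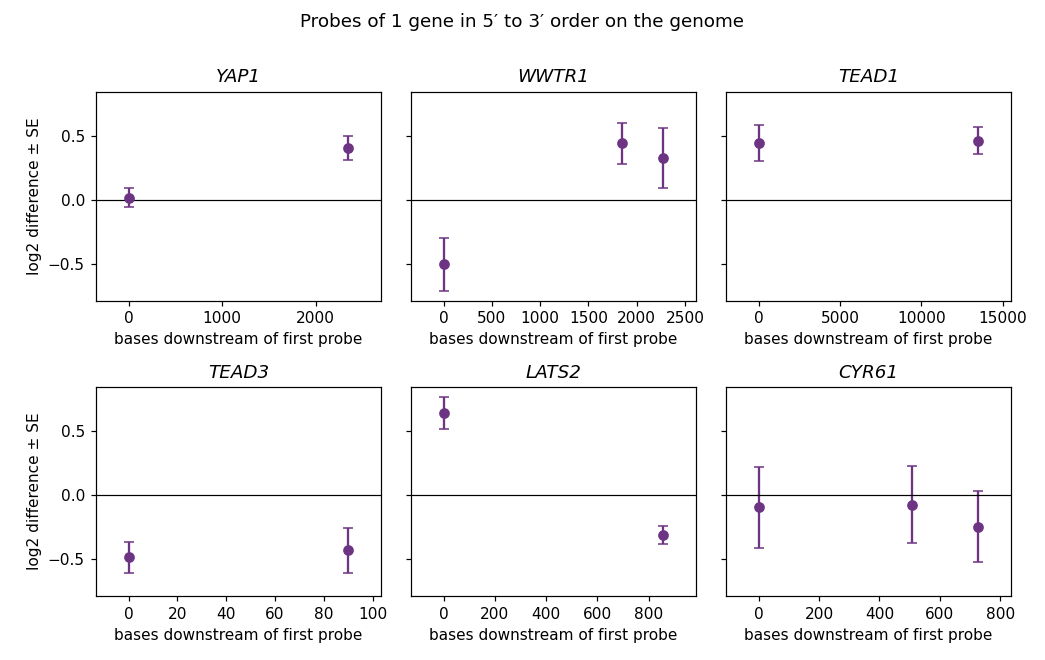
Difference in log2 signal, pre-miR-27a minus pre-control, ± SE (vertical axis) for each tested probe of the 6 genes with several probes, against its distance in bases downstream of the gene's first probe on hg18 (horizontal axis, own range per panel). The probes of TEAD1, TEAD3 and CYR61 give similar differences, and those of LATS2 and WWTR1 lie on opposite sides of 0.

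CTGF and CYR61, the classic readouts of YAP1 and TAZ activity, did not separate the transfections. CTGF, measured by a single probe at chr6:132311823-132311882 (minus strand, hg18), gave 12.06, 10.15 and 12.96 on pre-control replicates 1, 2 and 3 and 12.15, 10.23 and 12.99 on pre-miR-27a replicates 1, 2 and 3. The signal varied 7.01-fold among the pre-control arrays and 6.79-fold among the pre-miR-27a arrays, with replicate 2 lowest and replicate 3 highest in both. Against that spread the difference was 0.07 (95% interval −2.36 to 2.50, adjusted p = 0.975 in limma). Taken pair by pair the differences were 0.10, 0.08 and 0.03, and the fit with the block gave an interval of −0.08 to 0.22 (adjusted p = 0.391).

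CYR61 at its brightest probe, chr1:85821541-85821600, gave 14.12, 13.18 and 13.98 on pre-control arrays and 13.87, 13.30 and 13.89 on pre-miR-27a arrays. Replicate 2 was again the lowest in both groups, at all 3 probes. The differences at the 3 probes were −0.07, −0.10 and −0.25 (adjusted p = 0.911, 0.893 and 0.649), and with the block none was called (adjusted p = 0.607, 0.551 and 0.110, with 1 of 3 at an unadjusted p under 0.05). The block's interval for the brightest probe ran from −0.35 to 0.20.

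Spread between replicate numbers set CTGF apart from the genes upstream of it. Averaged over both transfections, its replicates ranged over 2.79 log2 units, a wider range than that of 99.86% of the 23648 genes measured on all arrays. YAP1 ranged over 0.03 units, wider than 2.33% of genes, but opposite orders in the 2 groups cancelled in this average. Within the groups YAP1 ranged over 0.20 after pre-control, with replicate 2 lowest, and 0.18 after pre-miR-27a, with replicate 2 highest. TEAD1 ranged over 0.22, LATS2 over 0.25, TEAD3 over 0.28, TEAD4 over 0.29, TEAD2 over 0.36 and WWTR1 over 0.60. The range of WWTR1 was wider than that of 83.04% of genes. Among 19 further published YAP and TAZ targets, 18 were measured on all 6 arrays, and 10 of these (55.6%) were lowest in replicate 2 in both groups. Over all genes this share was 20.7%, among 30 further pathway regulators 26.7%, and among the 10 genes it held for CTGF, CYR61 and TEAD3. Of 7 markers of the muscle lineage, 3 were lowest in replicate 2 in both groups (42.9%). Another 3, MYOD1, MYOG and CHRNA1, were lowest in replicate 1 in both groups. MYF6 gave 9.57, 7.76 and 10.99 on pre-control arrays and 9.47, 7.40 and 11.02 on pre-miR-27a arrays, a range over replicates of 3.43, and MYH3 (2.22) and DES (0.89) likewise were lowest in replicate 2 and highest in replicate 3 of both groups. The order of replicates seen for CTGF is thus shared by MYF6, MYH3 and DES, muscle genes that are in none of the pathway lists used here. The part of the muscle genes in this order was not tested. The targets lowest in replicate 2 of both groups included AXL, a receptor tyrosine kinase, which was highest in replicate 1 of both. AXL gave 11.27, 9.79 and 10.56 on pre-control arrays and 10.63, 9.35 and 9.89 on pre-miR-27a arrays. ANKRD1, a muscle ankyrin repeat protein, was lowest in replicate 2 and highest in replicate 3, with 8.83, 8.49 and 9.27 and then 8.99, 8.54 and 9.43. These orders were noticed in the data, and no cell density or culture date is given for the replicates in the sources used here.

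**Figure D4:**
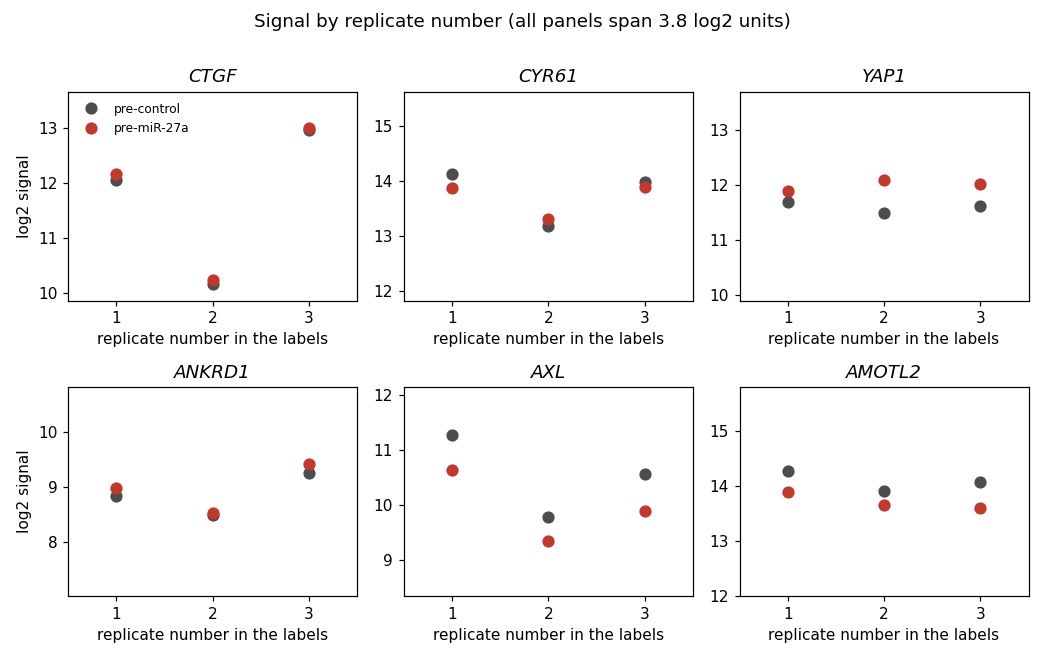
Log2 signal (vertical axis, 3.8 units in every panel) against the replicate number (horizontal axis) on pre-control (gray) and pre-miR-27a (red) arrays for CTGF, CYR61, YAP1 and the targets ANKRD1, AXL and AMOTL2. CTGF drops to 10.15 and 10.23 in replicate 2 of both transfections while YAP1 stays between 11.49 and 12.08.

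Of the other YAP and TAZ targets, 8 were higher and 11 lower after pre-miR-27a, with a median difference of −0.15, and 1 of 19 was called, near the 7.4% of all genes. With the block 2 were called, against 14.1% of all genes. PTPN14, a phosphatase that holds YAP1 in the cytoplasm and is also its target, gave 7.71, 7.66 and 7.73 on pre-control arrays and 9.00, 8.95 and 8.60 on pre-miR-27a arrays. The groups did not overlap at this probe, with a difference of 1.15 (SE 0.13, adjusted p = 0.0176). This probe was the brighter of its 2 only through the pre-miR-27a arrays, however, with a mean of 7.70 against 8.18 on pre-control arrays, so its own change chose it. The other probe differed by −0.05 (adjusted p = 0.807), and with each gene taken by its probe brightest on pre-control arrays 0 of 19 targets were called by limma (1 at an unadjusted p under 0.05). AXL was lower in all 3 pairs, by −0.58, which was called only with the block (adjusted p = 0.516, and 0.0361 with the block). AMOTL2, which binds YAP1 at cell junctions, was lower on every pre-miR-27a array by −0.37 (adjusted p = 0.158), and ANKRD1 differed by 0.12 (adjusted p = 0.845).

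Of 31 further regulators of the pathway 30 were measured, 21 higher and 9 lower, with a median of 0.11, and 3 were called, where 7.4% of all genes were called. LIMD1, a LIM protein that binds and restrains LATS kinases, gave 5.48, 6.10 and 6.30 on pre-control arrays and 7.26, 7.55 and 7.37 on pre-miR-27a arrays. It rose by 1.44 (SE 0.23, adjusted p = 0.0268), but this is a dim probe, at 50.9 to 178 intensity units, and with normexp the rise was 0.71 (adjusted p = 0.0180). FRMD6, an upstream activator related to NF2, gave 10.97, 10.71 and 10.94 and then 11.61, 11.29 and 11.53. It rose by 0.61 (adjusted p = 0.0462), while its dimmer second probe differed by −0.18 (adjusted p = 0.610). TAOK2, a kinase that activates the MST kinases, gave 10.93, 11.09 and 10.94 and then 10.40, 10.34 and 10.27, and fell by 0.65 (adjusted p = 0.0200), with −0.04 at its second probe (adjusted p = 0.858). With the block 4 of 30 were called, where 14.1% of all genes were called. The added gene was the MST scaffold SAV1, at −0.47 (adjusted p = 0.0998, and 0.0366 with the block), although its second probe was called in the other direction with the block, at 0.69 (adjusted p = 0.0336).

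The regulators that were to be named whatever their change were not called at their brightest probes. AMOT, a junction protein that binds YAP1, differed by 0.35 (adjusted p = 0.240), STK4, which is the kinase MST1, by 0.36 (adjusted p = 0.281), NF2, the scaffold merlin, by 0.12 (adjusted p = 0.445), and VGLL4, which competes with YAP1 for TEAD, by 0.20 (adjusted p = 0.354). Their dimmer probes did not share 1 direction. Those of NF2 differed by −0.37 (adjusted p = 0.0434, called lower) and 0.28 (adjusted p = 0.118, all pre-miR-27a arrays higher), and 1 more was left out by the filter. That of VGLL4 differed by 0.65 without overlap (adjusted p = 0.0516, and 0.0334 with the block). Those of STK4 differed by −0.02 and −0.20 and that of AMOT by −0.41, and none of these was called. None of the 4 other CCN genes was called by limma, with or without the block (0 also at an unadjusted p under 0.05), and only NOV was well above background on every array, at a difference of 0.29 (adjusted p = 0.864) and of 0.17 at its second probe.

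**Figure D5:**
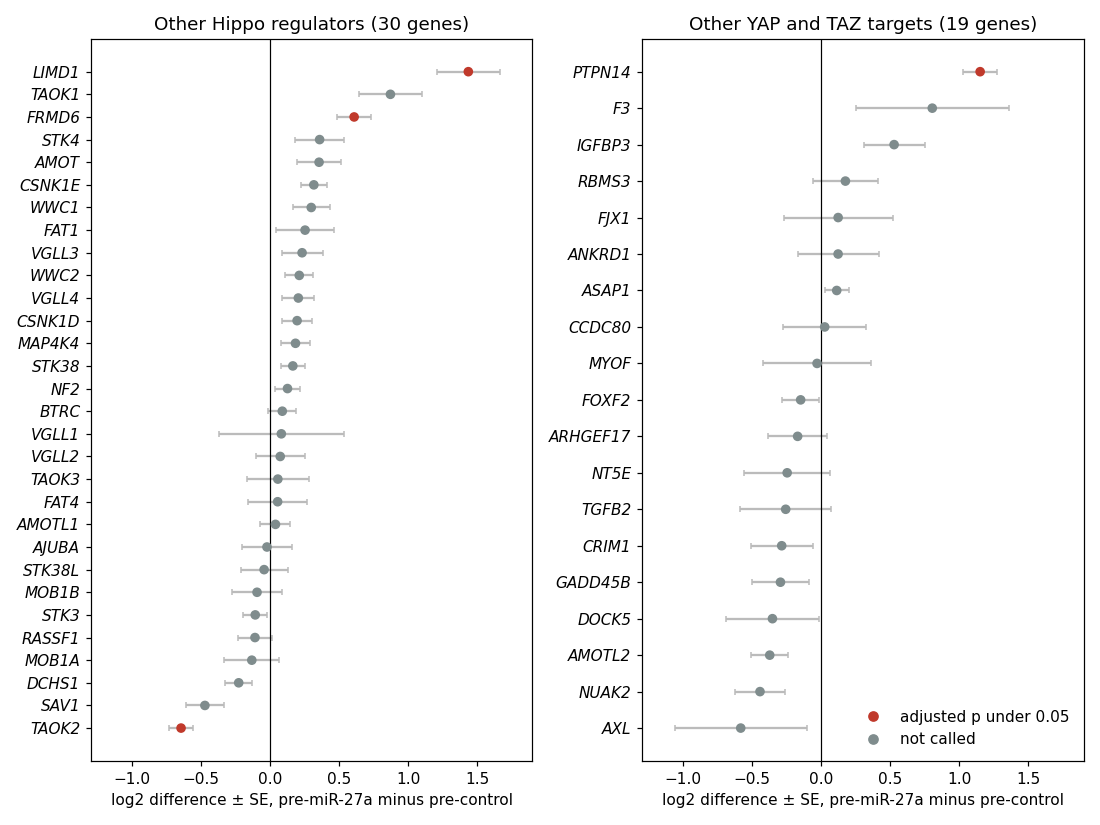
Difference in log2 signal, pre-miR-27a minus pre-control, ± SE (horizontal axis) at the brightest probe of 30 further Hippo regulators (left) and 19 further YAP and TAZ targets (right), ordered by size, with genes called by limma in red. LIMD1, FRMD6, PTPN14 (by the probe its own change made the brighter) and TAOK2 are the genes called.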

How the data were processed

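Total RNA of RH36 cells was hybridised to 6 Agilent 1-colour (Cy3) arrays. The authors deposited spot intensities from Feature Extraction, background-subtracted and detrended within the array, with quality flags, and quantile-normalized log2 values whose scale was checked against the arrays (median difference 0.0027 to 0.0066, correlation at least 0.99999). Columns of per-sample values that were not used number 0. Control spots were left out, log2 processed intensity was quantile normalized, spots with a found flag of 0 were set to missing, spots of a probe were averaged, and a probe was kept if at most 1 array was missing, as 36469 probes were. Files were read in R 4.3.3 (version 1.17.8 of data.table), and the groups were compared in limma 3.58.1, two-sided, with p-values adjusted over all kept probes by Benjamini-Hochberg and a threshold of 0.05. The fit was tested on simulated data. The study's SAM analysis, which its results section calls two-paired, was not repeated. Figures were drawn with matplotlib 3.10.9 in Python 3.11.15.

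The replicate numbers come from the labels, which call them biological replicates. The deviations from the group means of arrays with the same number correlated at 0.40, 0.46 and 0.41 over 31717 probes, against −0.27 to −0.12 for different numbers, and every same-numbered pair was over 0.1. The main fit nevertheless took the arrays as unpaired. Pairing by number enters only through the fit with the replicate block and the differences given pair by pair. The share of spots well above background was 69.9% to 73.9% after pre-control and 74.1% to 78.0% after pre-miR-27a, 0 spots were saturated, and precision is limited by there being only 6 arrays.

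The genes, the lists of regulators, targets and markers, and the tests were chosen with earlier results of these data known. A gene is given by its brightest probe, and its other tested probes are given beside it where the gene is named in the text. Markers are an exception, apart from CD3E, CHRNA1 and, for detection only, VWF. Named are all probes of the 10 genes, genes of the other lists with an adjusted p under 0.05, and AMOT, STK4, NF2, VGLL4, ANKRD1, AXL and AMOTL2. SAV1, NOV and second probes were named after their values were seen. The target list is a published YAP and TAZ signature without CTGF, CYR61 and LATS2. WTIP, a listed regulator, was not matched to a probe. Probe positions are those of the array files, on hg18, and sequences are from RefSeq on GRCh38.p14. Alternatives were 75th percentile scaling, normexp (offset 50), no filter, a filter on signals well above background, the replicate block, the deposited log2 values, a variance trend with robust estimation, the mean of a gene's probes, and leaving out arrays.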

Additional observations from a re-analysis of the deposited data

How the results depend on the processing

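With 3 arrays a group, the number of calls depended on the setting more than the size of the differences did. Of the 10 genes, 1 was called, against 4 with normexp, 4 with only probes well above background, 4 with a variance trend and robust estimation, 5 with the replicate block and 0 with the mean of a gene's probes. Without 1 array the count was 0 to 1. Of the 18 probes, 1 was called, against 4, 4, 5 and 9 in the first 4 of these settings, and 0 to 1 without 1 array. YAP1, TEAD1 and TEAD3 were the genes added by normexp (adjusted p = 0.0373, 0.0342 and 0.0256), by the filter and by the variance trend. Over all probes 2856 were called, 1440 higher and 1416 lower, and with 75th percentile scaling 1275 higher and 1981 lower. Leaving out pre-control replicate 1 left 1276 calls, pre-control replicate 3 left 81, and each of the other arrays left 0, where 7178 to 7686 probes had an unadjusted p below 0.05. The regulators had 3 calls, and 4 with normexp, with only probes well above background or with the replicate block. They had 1 with the mean of probes and 0 to 3 without 1 array. The other targets had 1 call, 2 with the replicate block and 0 to 1 without 1 array. Taking each gene by its probe brightest on the pre-control arrays, an alternative chosen after seeing the data, left 0 calls among the targets and turned PTPN14 to −0.052, and changed no count among the 10 genes, the regulators and the CCN genes. Combinations chosen after seeing the data gave, with the replicate block and 75th percentile scaling, 4 genes, 6 probes and 3 targets, with the replicate block and normexp 7 genes, 13 probes, 10 regulators and 8 targets, and with the block but without any 1 replicate pair 0 in each list. Among the probes of the 10 genes and the brightest probes of the regulators, targets and CCN genes, the block changed no other call than those given beside the results. Directions reversed for NF2 (−0.027 with 75th percentile scaling, with or without the block) and AMOT (−0.030 with the mean of probes). Without 1 array, the differences ran from −0.72 to 0.85 for CTGF, −0.36 to 0.12 for CYR61, −0.41 to 0.10 for its probe A_24_P370946, −0.024 to 0.048 for the YAP1 probe A_23_P104762 and −0.10 to 0.34 for ANKRD1. With the block and without replicate 1 the same YAP1 probe was at −0.023 and CYR61 at 0.014. The cause of these changes was not tested. Of 562 values for single genes or probes under other settings, 458 kept their direction and their side of the threshold, 44 lost a call, 42 gained one and 18 reversed.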
